A study of Homo sapiens with 12 samples.

Results

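MiR-221 and miR-222 are 2 human miRNAs cut from neighbouring hairpins of one long transcript, and both arms of each hairpin are described here, miR-221-3p, miR-221-5p, miR-222-3p and miR-222-5p. These 4 names were chosen by name, with earlier results of these data known, from 1971 miRNA names listed over all libraries. The study rescued HEK293T, a human embryonic kidney line, and HCT116, a human colorectal carcinoma line, with 1 of 3 forms of DICER, the enzyme that turns precursor hairpins into short duplexes. Small RNA was sequenced by AQ-seq, a library method built to lower ligation bias, from 100 µg of total RNA per library. The groups were HEK293T with AA, HEK293T with dsRBD deletion, HEK293T with WT, HCT116 with AA, HCT116 with dsRBD deletion and HCT116 with WT, of 2 libraries each. All 6 groups are called rescues in the labels, which name neither the residues changed in AA, the amount of each DICER form nor whether a group is 1 clone, so an effect of a form cannot be told apart from one of its amount. The labels do not say that the 2 libraries of a group came from separate cultures, and p-values then measure only the spread between these libraries.

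A miRNA hairpin is cropped in the nucleus and then cut by DICER near its loop, and one strand of the resulting duplex, the guide, is loaded into an Argonaute protein while the other strand is mostly lost. The guide finds messenger RNAs through its seed, so guides with the same seed can share targets. The guides of miR-221 and miR-222 are their 3p strands. They are known as repressors of CDKN1B, the cell cycle inhibitor p27, and of the receptor KIT, and are high in many epithelial tumours. The double-stranded RNA-binding domain (dsRBD) is the last domain of DICER and contacts the RNA duplex.

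The mature sequences show why the pair can be compared: the guides share their first 8 bases and differ after them. Capitals mark the seed, bases 2 to 8.
hsa-miR-221-3p: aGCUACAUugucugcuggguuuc
hsa-miR-222-3p: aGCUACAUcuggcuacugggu
hsa-miR-222-5p: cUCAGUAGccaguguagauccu
These RNAs are from RefSeq on GRCh38.p14 and are written 5′ to 3′. In the RefSeq miRNA table only 2 names carry the seed GCUACAU, miR-221-3p and miR-222-3p. The 3p strands are 23 and 21 bases long and are identical at 11 of the 21 positions that can be laid side by side without a gap.

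Both hairpins lie on the minus strand of the X chromosome, MIR221 at chrX:45746157-45746266 and MIR222 at chrX:45747015-45747124 (GRCh38.p14), with 748 bases between them. Both are inside the host gene MIR222HG, in the intron of transcript MIR222HG-201, and overlap no exon. The RefSeq hairpins, of 110 bases each, are shown because they hold both arms, with the 3p arm in capitals, and they run past the cropped precursor that DICER cuts.
MIR221: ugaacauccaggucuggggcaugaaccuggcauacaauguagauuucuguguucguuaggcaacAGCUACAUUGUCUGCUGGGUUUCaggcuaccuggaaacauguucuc
MIR222: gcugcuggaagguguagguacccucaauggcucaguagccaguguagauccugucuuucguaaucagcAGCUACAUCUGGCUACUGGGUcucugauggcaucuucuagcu
Folded with ViennaRNA, both gave a single hairpin, with a minimum free energy of −46.5 kcal/mol for MIR221 and −53.8 kcal/mol for MIR222. In these folds 21 of 23 bases of miR-221-3p and 18 of 21 bases of miR-222-3p were paired. The terminal loop had 5 bases in MIR221 and 11 bases in MIR222. The folds are predictions on the RefSeq hairpins and were not measured in the libraries.

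Depth was 1059778 to 3552613 miRNA reads per library in HEK293T and 824987 to 4498886 in HCT116, and the deletion libraries were the shallowest of each line. A name with no read could still stand at 0.755 to 3.10 CPM (the count after every library is scaled to one common total), the level of 3 reads. Per spike-in read, HEK293T gave 51.6 ± 10.3 miRNA reads with AA, 28.2 ± 1.33 with the deletion and 81.8 ± 1.21 with WT, and HCT116 gave 208 ± 2.93 with AA, 64.2 ± 0.736 with the deletion and 320 ± 65.9 with WT (mean ± SD, n = 2). Of 5 miRNAs listed as epithelial or colon markers, 3 were lower and 2 higher in HEK293T than in HCT116 with WT, so that miR-192-5p and miR-194-5p went against the HCT116 label. Both markers listed for HEK293T, miR-10a-5p and miR-10b-5p, were higher there. Markers of other tissues summed to 3204 to 5887 CPM in HEK293T, highest in the AA libraries, and to 1370 to 1585 CPM in HCT116, mostly as miR-9-5p. MiR-206 and miR-208a-3p were not listed. Their part in the results was not tested.

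MiR-222-3p and miR-221-3p were among the most abundant miRNAs of HCT116 and were much lower in HEK293T. The 4 arms together took 0.699% and 0.730% of the miRNA reads in the HEK293T AA libraries, 0.139% and 0.136% in the deletion libraries and 1.13% and 1.11% in the WT libraries. In HCT116 they took 10.1% in both AA libraries, 3.21% and 3.29% in the deletion libraries and 12.7% in both WT libraries. By read count miR-222-3p had rank 2 and miR-221-3p rank 4 in both HCT116 WT libraries. With the deletion the order turned in HCT116, where miR-221-3p had rank 3 in both libraries and miR-222-3p had ranks 28 and 35. In HEK293T the ranks of miR-222-3p were 65 and 60 with AA, 216 and 230 with the deletion and 39 and 41 with WT. The ranks of miR-221-3p there were 37 and 35 with AA, 72 and 75 with the deletion and 37 in both WT libraries, so that it moved less.

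Scaled over all 12 libraries by TMM, which sets the typical miRNA equal between libraries, the levels were ordered by line and form. MiR-222-3p averaged 111 CPM in HEK293T with the deletion, 2165 CPM in HEK293T with AA, 4516 CPM in HCT116 with the deletion, 4940 CPM in HEK293T with WT, 55958 CPM in HCT116 with AA and 91945 CPM in HCT116 with WT. Of the neighbours in that order, HCT116 with the deletion (5163 and 3870 CPM) and HEK293T with WT (4633 and 5247 CPM) overlapped and the others did not. MiR-221-3p averaged 1274 CPM in HEK293T with the deletion, 5615 CPM in HEK293T with AA, 5891 CPM in HEK293T with WT, 15774 CPM in HCT116 with the deletion, 46214 CPM in HCT116 with AA and 53274 CPM in HCT116 with WT. The HEK293T AA libraries lay between the 2 WT libraries, and the other neighbours did not overlap. The 3 HEK293T groups of miR-221-5p overlapped at this scaling, between 20.7 and 30.3 CPM, and the HCT116 AA libraries of miR-221-5p lay inside the range of the WT libraries. No 2 groups of miR-222-5p overlapped, with means of 8.08 CPM in HEK293T with the deletion to 1669 CPM in HCT116 with WT.

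**Figure D1:**
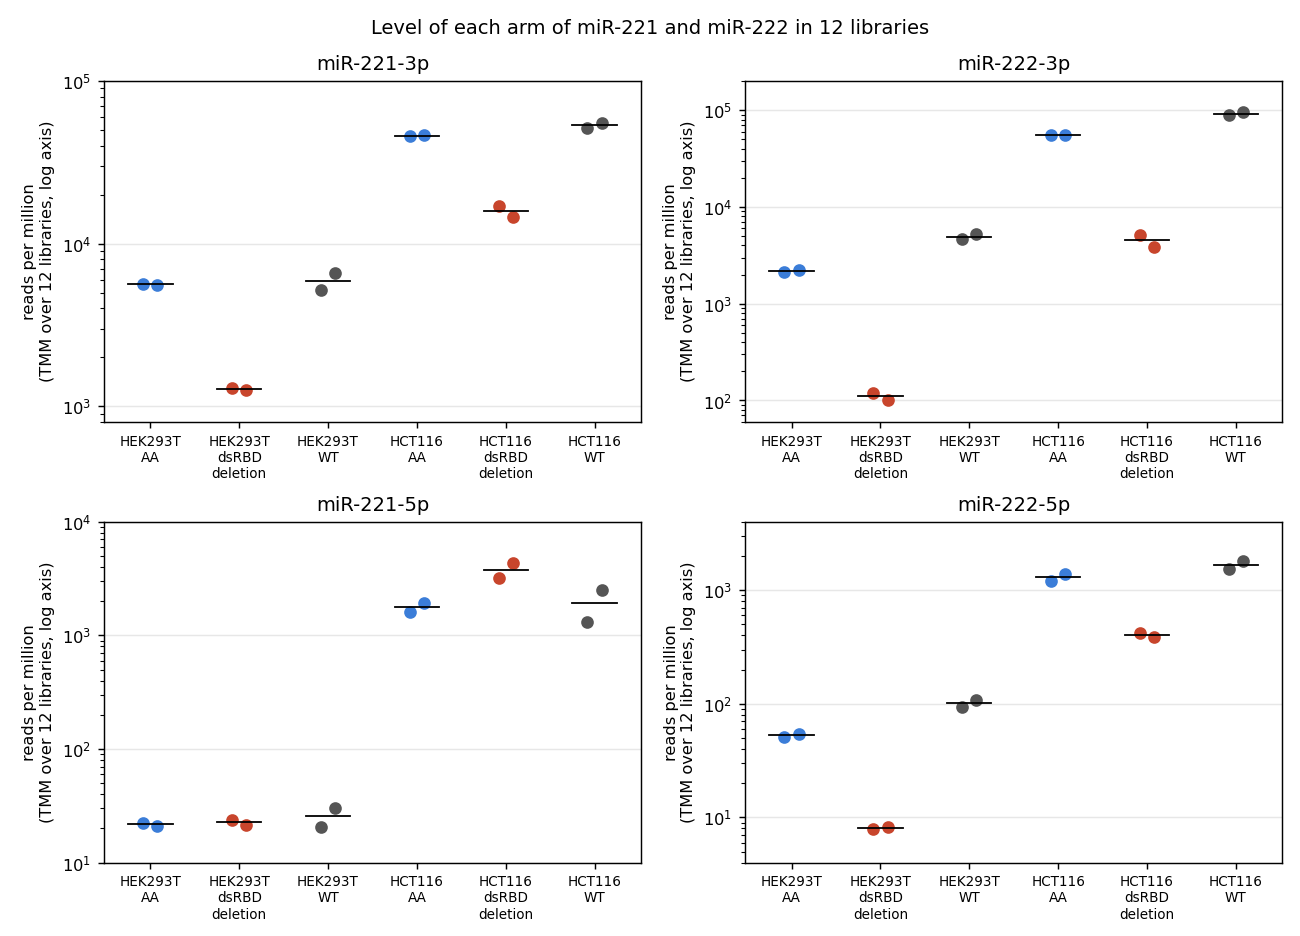
CPM of each arm in the 12 libraries, scaled by TMM over all libraries, on log axes whose ranges differ between panels. Points are libraries and lines are the means of 2 libraries. MiR-222-3p spans 102 to 94651 CPM, and miR-221-5p is the arm whose HEK293T libraries lie together, at 20.7 to 30.3 CPM.

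With WT, each of the 4 arms was lower in HEK293T than in HCT116, where 41.2% of the 844 names tested in both lines were called lower and 87.3% did not overlap between the lines. The log2 fold change was −3.18 ± 0.17 (SE) for miR-221-3p, −4.22 ± 0.19 for miR-222-3p, −4.05 ± 0.20 for miR-222-5p and −6.23 ± 0.31 for miR-221-5p, against a median of −0.39 over all names. The edgeR quasi-likelihood adjusted p values (Benjamini-Hochberg) were 1.4e-13 for miR-221-3p, 3.3e-15 for miR-222-3p, 1.8e-14 for miR-222-5p and 2.3e-14 for miR-221-5p. MiR-221-5p, the passenger of miR-221, thus had the largest gap between the lines of the 4 arms, 75.04-fold, and it was also the rarest arm in HEK293T with WT, at 66 and 100 reads. Leaving out 1 library gave −6.68 to −5.59 for miR-221-5p. Scaled to the spike-ins the 4 arms were further apart between the lines, at −4.86 for miR-221-3p, −5.89 for miR-222-3p, −5.73 for miR-222-5p and −7.97 for miR-221-5p, against a median of −2.02 over all names.

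With the dsRBD deletion in HEK293T 3 of the 4 arms fell, and miR-222-3p had the largest fall of them. Levels from here on are TMM-scaled CPM within a line. MiR-222-3p had 109 and 94.2 CPM in the HEK293T deletion libraries, which is 123 reads in each, against 5237 and 5058 CPM with WT. The groups stood far apart, with a log2 fold change of −5.67 ± 0.20 (SE), a 50.8-fold fall and the fall of rank 27 among 626 tested names. MiR-222-5p, the passenger of the same hairpin, had 7.07 and 7.66 CPM with the deletion, from 8 and 10 reads, against 106 and 104 CPM with WT, a log2 fold change of −3.82 ± 0.30. MiR-221-3p had 1165 and 1156 CPM with the deletion, against 5854 and 6368 CPM with WT, a log2 fold change of −2.40 ± 0.16. All 3 fell, with edgeR adjusted p values of 8.7e-09 for miR-222-3p, 7.1e-07 for miR-222-5p and 3.0e-07 for miR-221-3p. In this comparison 39.6% of the tested names were called lower, 35.9% were called higher and 89% did not overlap between the groups.

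MiR-221-5p was the exception in HEK293T. It had 21.2 and 19.9 CPM with the deletion, from 24 and 26 reads, against 23.4 and 29.2 CPM with WT. The libraries did not overlap but lay close, and the log2 fold change of −0.36 ± 0.28 did not pass (edgeR adjusted p = 0.26). Scaled to the spike-ins it was −1.81 and passed, against a median of −1.53 over all names.

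In HCT116 the same 3 arms fell with the deletion, at much higher counts, and miR-222-3p again had the largest fall. MiR-222-3p had 5488 and 4312 CPM in the deletion libraries, against 89329 and 95308 CPM with WT, a log2 fold change of −4.24 ± 0.14 (edgeR adjusted p = 3.4e-09) and the fall of rank 47 among 795 tested names. MiR-222-5p had 444 and 432 CPM with the deletion, against 1526 and 1825 CPM with WT, a log2 fold change of −1.94 ± 0.14 (edgeR adjusted p = 8.6e-07). MiR-221-3p had 18023 and 16263 CPM with the deletion, against 51521 and 55461 CPM with WT, a log2 fold change of −1.64 ± 0.11 (edgeR adjusted p = 3.5e-07). No deletion library of these 3 arms reached a WT library. Here 34.1% of the tested names were called lower, 28.1% were called higher and 82.5% did not overlap.

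MiR-221-5p rose in HCT116 relative to the typical miRNA, and this rise turned with the scaling. It had 3365 and 4842 CPM with the deletion, against 1317 and 2544 CPM with WT. Both deletion libraries were above both WT libraries, which themselves differed widely, and the log2 fold change was 1.09 ± 0.27 (edgeR adjusted p = 0.0049). The call was lost without deletion replicate 2 (0.71), and the value was 0.56 without WT replicate 1 and 1.57 without WT replicate 2. Scaled to the spike-ins it was −0.75, on the other side of 0, against a median of −1.78 over all names. Per spike-in read the deletion libraries had 0.251 and 0.399 reads of miR-221-5p, against 0.318 and 0.764 with WT, and these ranges overlap.

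With AA the guide of miR-222 fell in both lines at TMM scaling, while neither arm of miR-221 passed in either line. At spike-in scaling both arms of miR-221 passed in HCT116, where the median of all names was then −0.63. In HEK293T miR-222-3p had 2032 and 2116 CPM with AA, against 5237 and 5058 CPM with WT, so that the AA libraries were well under the WT libraries. The log2 fold change was −1.31 ± 0.16 (edgeR adjusted p = 3.4e-04). MiR-222-5p had 48.9 and 52.4 CPM with AA, against 106 and 104 CPM with WT, a log2 fold change of −1.05 ± 0.22 (edgeR adjusted p = 0.0066). Its call was lost with upper-quartile factors (−0.60), where the median of all names was 0.34, against −0.11 with TMM. MiR-221-3p had 5404 and 5354 CPM with AA, against 5854 and 6368 CPM with WT, and miR-221-5p had 21.5 and 20.1 CPM with AA, against 23.4 and 29.2 CPM with WT. For these 2 arms AA lay just under WT without overlap when scaled within the line. Scaled over all 12 libraries, AA lay between the 2 WT libraries for both arms. The log2 fold changes of −0.18 ± 0.16 and −0.34 ± 0.26 did not pass (edgeR adjusted p = 0.45 and 0.42). In this comparison 15.2% of the tested names were called lower, 6.23% were called higher and 59.6% did not overlap.

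In HCT116 miR-222-3p had 56209 and 55834 CPM with AA, against 89329 and 95308 CPM with WT, a log2 fold change of −0.72 ± 0.13 (edgeR adjusted p = 0.0058). The AA libraries were close to each other and clearly under WT, in a comparison where 6.16% of the tested names were called lower, 1.26% were called higher and 53.8% did not overlap. The call was lost without AA replicate 1 (−0.72) and without AA replicate 2 (−0.73), each of which leaves 1 AA library. MiR-222-5p had 1205 and 1382 CPM with AA, against 1526 and 1825 CPM with WT. MiR-221-3p had 45957 and 46571 CPM with AA, against 51521 and 55461 CPM with WT. MiR-221-5p had 1627 and 1907 CPM with AA, inside the 1317 and 2544 CPM with WT. The log2 fold changes of these 3 arms were −0.37 ± 0.14, −0.21 ± 0.11 and −0.13 ± 0.27 and did not pass (edgeR adjusted p = 0.14, 0.31 and 0.85). Scaled to the spike-ins all 3 passed, at −0.998, −0.82 and −0.80, against a median of −0.63 over all names. A value that misses the threshold at 2 libraries a group does not show that AA and WT were alike.

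**Figure D2:**
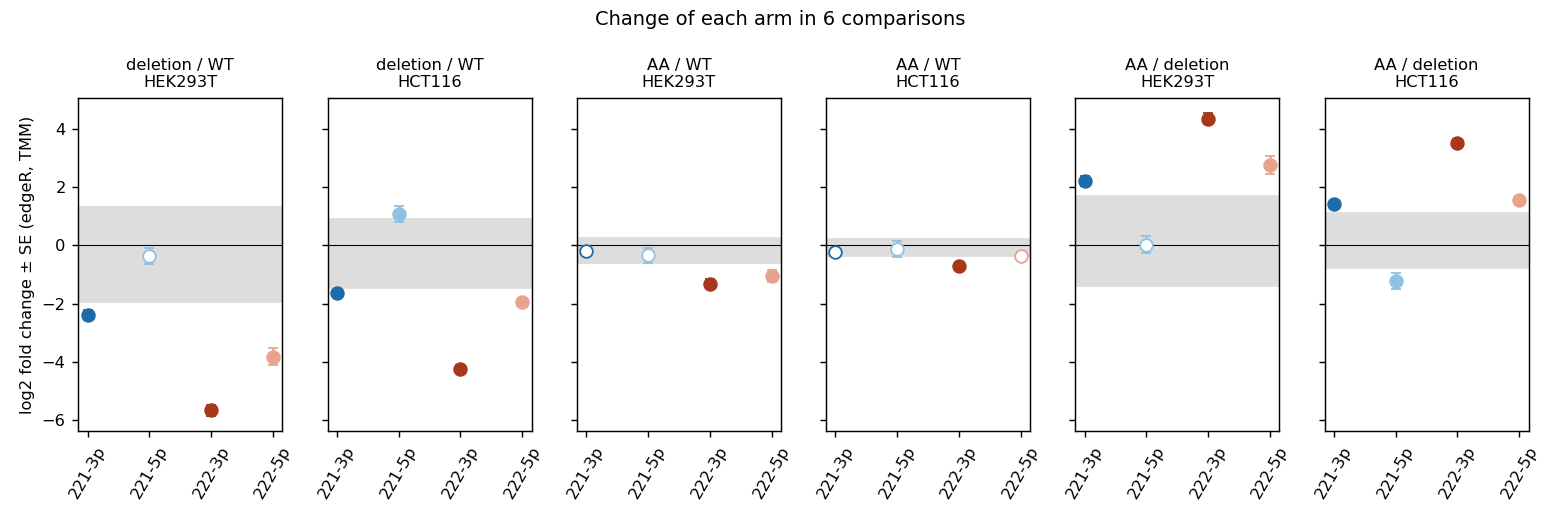
Log2 fold change of each arm (points) with its standard error (bars) in 6 comparisons, from edgeR with TMM scaling. Filled points passed an adjusted p of 0.05, open points did not, and the grey band holds the middle 50% of all tested names. MiR-222-3p lies outside the band in all 6 panels, and miR-221-5p lies inside it in 4 of 6.

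Set against the deletion, 3 of the 4 arms were higher with AA in both lines. In HEK293T, with 36.1% of the tested names called higher and 36.9% called lower, miR-222-3p was higher with AA than with the deletion by 4.35 on the log2 scale, miR-222-5p by 2.77 and miR-221-3p by 2.21, and their libraries did not overlap, as for 87.7% of names. MiR-221-5p was at 0.03 ± 0.30 and its libraries overlapped, while it was higher with AA at spike-in scaling (1.01, against a median of 0.97 over all names). In HCT116, with 29.6% of the tested names called higher and 26.9% called lower, miR-222-3p was higher with AA by 3.52, miR-222-5p by 1.56 and miR-221-3p by 1.43, again without overlap, as for 78.4% of names. MiR-221-5p was lower with AA than with the deletion there, by −1.22 ± 0.27 at TMM scaling (edgeR adjusted p = 0.0030), and no longer passed at spike-in scaling (−0.04, against a median of 1.12 over all names). All 6 other changes named here passed, with edgeR adjusted p values of 3.8e-08 to 1.8e-05 in HEK293T and 1.0e-08 to 5.3e-06 in HCT116. These comparisons share their AA and deletion libraries with the comparisons to WT.

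The size of the deletion effect differed between the lines for 3 of the 4 arms at TMM scaling, each more negative in HEK293T. The difference, HEK293T minus HCT116, was −1.12 ± 0.24 (SE, log2) for miR-222-3p, −1.58 ± 0.35 for miR-222-5p and −1.15 ± 0.42 for miR-221-5p, against a median of 0.34 over the 844 names. The edgeR adjusted p values of the interaction were 7.6e-04 for miR-222-3p, 0.0011 for miR-222-5p and 0.036 for miR-221-5p. In this comparison 12.4% of names were called more negative in HEK293T and 22.4% more positive. MiR-221-3p, at −0.45 ± 0.23, did not pass (edgeR adjusted p = 0.14), and it did pass with DESeq2 size factors (−0.74), library totals (−1.17) and upper-quartile factors (−0.76). The median of all names moved down as well, to 0.03 with DESeq2 size factors, −0.40 with library totals and 0.02 with upper-quartile factors. The call of miR-221-5p was lost at spike-in scaling (−1.04) and without any 1 of 7 libraries, which are WT replicate 1 (−0.82) and deletion replicate 2 (−0.91) of HCT116, and WT replicate 2 (−0.82), both deletion libraries (−1.10 and −1.02) and both AA libraries (−1.06 and −1.07) of HEK293T, and it was −1.88 without HCT116 WT replicate 2. For AA the difference between the lines passed for none of the 4 arms by edgeR or by DESeq2's test, at −0.57 to 0.14 by edgeR, where 3.91% of names were called in either direction, although miR-222-5p had an unadjusted p of 0.042 and both arms of miR-222 passed with library totals (−0.82 for miR-222-3p and −0.92 for miR-222-5p). With library totals the median of all names for the AA difference was −0.40.

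The spike-in RNAs give a second scale, on which the change of each arm from WT was more negative than at TMM scaling, for both altered forms. MiR-222-3p had 0.111 and 0.0907 reads per spike-in read in the HEK293T AA libraries, 0.00338 and 0.00273 in the deletion libraries and 0.437 and 0.394 in the WT libraries. In HCT116 it had 11.3 and 11.0 with AA, 0.410 and 0.356 with the deletion and 21.6 and 28.6 with WT. Each group stood clear of the other 2. With spike-in factors in edgeR the deletion changed miR-222-3p by −7.12 in HEK293T and −6.05 in HCT116, miR-222-5p by −5.26 in HEK293T and −3.75 in HCT116, and miR-221-3p by −3.85 in HEK293T and −3.45 in HCT116, on the log2 scale, and all 6 passed, as they did at TMM scaling. The median over all names with these factors was −1.53 in HEK293T and −1.78 in HCT116. Over the 30 spike-ins taken singly, the deletion changed miR-222-3p by −8.73 to −5.92 on the log2 scale in HEK293T and by −6.51 to −5.03 in HCT116, and AA by −3.24 to −1.13 in HEK293T and by −3.19 to −0.50 in HCT116. For miR-221-3p with AA the single spike-ins gave −2.11 to −0.00 in HEK293T and −2.68 to 0.01 in HCT116. For miR-221-5p with the deletion in HCT116 they gave −1.13 to 0.36, with 29 of 30 below 0. The sources used here do not give the amount of spike-in RNA per library.

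The ratio of the 2 guides within a library needs no scaling, and in both lines it was lowest with the deletion, intermediate with AA and highest with WT. There were 0.376 and 0.395 reads of miR-222-3p per read of miR-221-3p in the HEK293T AA libraries, 0.0933 and 0.0815 in the deletion libraries and 0.895 and 0.794 in the WT libraries. In HCT116 there were 1.22 and 1.20 with AA, 0.304 and 0.265 with the deletion and 1.73 and 1.72 with WT. No library of one form came near those of another form in the same line. The mean ratio with AA was 45.7% of that with WT in HEK293T and 70.2% in HCT116, and with the deletion it was 10.3% in HEK293T and 16.5% in HCT116. Because the pair was picked for its different response, these ratios are a description and were not tested. The passengers showed the same direction at much lower counts: there were 2.28 and 2.61 reads of miR-222-5p per read of miR-221-5p with AA in HEK293T, 0.333 and 0.385 with the deletion and 4.52 and 3.56 with WT. In HCT116 there were 0.741 and 0.725 with AA, 0.132 and 0.0893 with the deletion and 1.16 and 0.717 with WT, where AA and WT overlap.

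**Figure D3:**
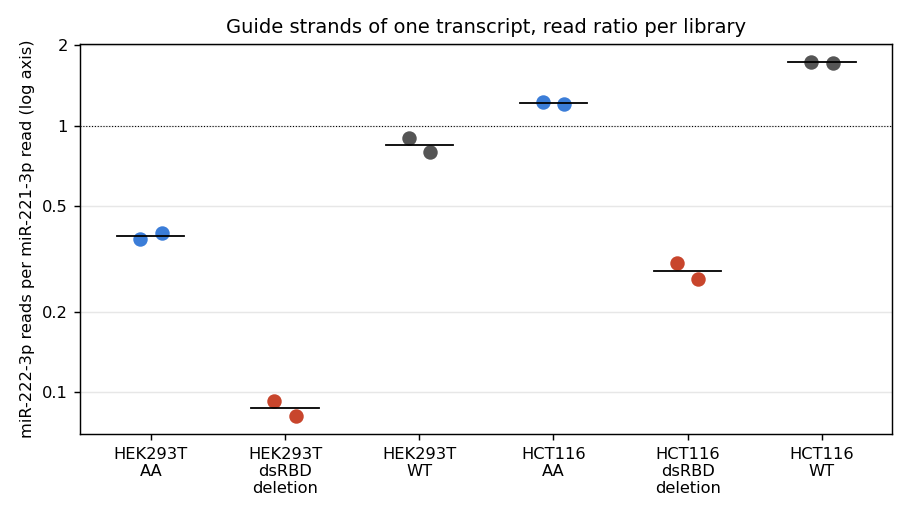
Reads of miR-222-3p per read of miR-221-3p in each library (points) with the mean of 2 libraries (lines), on a log axis, and a dotted line at 1. The means are 0.386 with AA, 0.0874 with the deletion and 0.845 with WT in HEK293T, and 1.21 with AA, 0.285 with the deletion and 1.73 with WT in HCT116.

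Within each hairpin the share of reads on the 5p arm was higher with the deletion. The share is relative to both arms, and miR-222-5p itself fell with the deletion in both lines at TMM and at spike-in scaling. The 5p share of miR-221 reads in HEK293T was 0.396% (95% exact interval 0.301 to 0.512) and 0.374% (0.248 to 0.540) with AA, 1.79% (1.15 to 2.65) and 1.69% (1.11 to 2.47) with the deletion, and 0.398% (0.308 to 0.506) and 0.457% (0.372 to 0.556) with WT. In HCT116 it was 3.42% and 3.93% with AA, 15.7% (15.2 to 16.2) and 22.9% (22.5 to 23.4) with the deletion, and 2.49% and 4.39% with WT. The deletion libraries were above all others of their line, AA lay beside or inside WT, and the intervals cover counting error only. The 5p share of miR-222 reads was 2.35% and 2.41% with AA in HEK293T, 6.11% (2.67 to 11.7) and 7.52% (3.66 to 13.4) with the deletion, and 1.98% and 2.02% with WT. In HCT116 it was 2.10% and 2.42% with AA, 7.49% and 9.11% with the deletion, and 1.68% and 1.88% with WT. Here the deletion again stood highest, and both AA libraries were a little above both WT libraries in either line.

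Tested as the interaction of arm and DICER form, with the library as a block, 3p over 5p use with the deletion changed by −2.04 ± 0.32 (SE, log2) for miR-221 and −1.85 ± 0.44 for miR-222 in HEK293T, against a median of −0.37 over 180 hairpins. In HCT116 it changed by −2.78 ± 0.24 for miR-221 and −2.32 ± 0.18 for miR-222, against a median of −0.87 over 229 hairpins. The edgeR adjusted p values were 1.3e-05 and 0.0010 in HEK293T and 6.9e-10 and 1.7e-10 in HCT116. A shift toward 5p was called for 30% of hairpins in HEK293T and 46.7% in HCT116. The call of miR-222 in HEK293T was lost without deletion replicate 2 (−1.68), which rests on 10 reads of miR-222-5p. With AA neither hairpin passed, at 0.15 ± 0.29 for miR-221 and −0.26 ± 0.27 for miR-222 in HEK293T and −0.15 ± 0.24 and −0.35 ± 0.18 in HCT116, where 10.6% and 13.5% of hairpins were called in either direction.

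**Figure D4:**
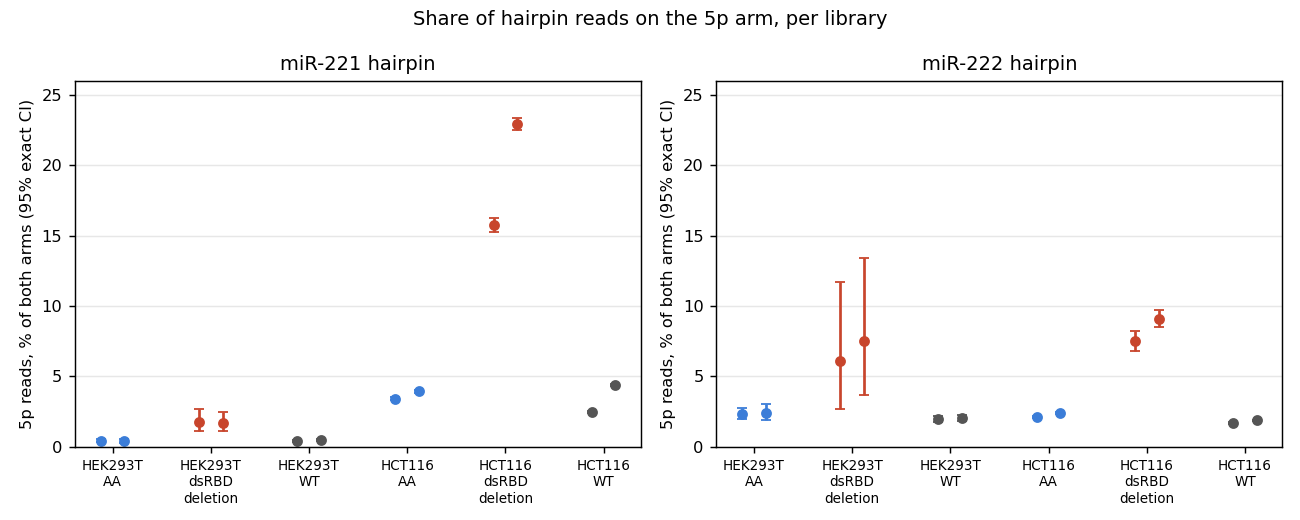
Percent of the reads of each hairpin that came from its 5p arm, per library (points), with exact 95% binomial intervals for counting error (bars). The HCT116 deletion libraries of miR-221 reach 15.7% and 22.9%, above every other library of either hairpin.

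Other pairs of miRNAs from one transcript with one seed give the setting for the gap between miR-222-3p and miR-221-3p. Of 23 listed pairs, 21 had the same seed in the RefSeq table, and both members were tested for 18 pairs in HEK293T and 19 in HCT116. With the deletion the 2 log2 fold changes of miR-222-3p and miR-221-3p were 3.27 apart in HEK293T, the gap of rank 2, against a median of 1.18 over the 17 other pairs. In HCT116 they were 2.59 apart, the gap of rank 4, against a median of 0.80 over the 18 other pairs. With AA they were 1.13 apart in HEK293T, the gap of rank 1, against a median of 0.45, and 0.51 apart in HCT116, the gap of rank 4, against a median of 0.15. Because the pair was picked for its different response, a wide gap and a high rank follow in part from that choice. The ranks are a description of one pair among few and were not tested.

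In HEK293T 1 other pair split further with the deletion and none with AA, and in HCT116 3 other pairs split further with each form. In HEK293T with the deletion miR-15b-5p (2.09) and miR-16-5p (−1.19) were 3.29 apart, moving in opposite directions, and miR-29c-3p (−1.11) and miR-29b-3p (−3.44) were 2.33 apart. In HCT116 with the deletion miR-29c-3p (−2.04) and miR-29b-3p (−4.85) were 2.80 apart, and let-7a-5p (−0.10) and let-7d-5p (−2.74) were 2.64 apart. The gap of rank 1 there, between miR-132-3p and miR-212-3p, rests on miR-212-3p, which had no read in either deletion library and 2.92 ± 1.57 CPM with WT (SD, n = 2), so its fitted change is no bound. With AA the wide gaps were those of miR-29a-3p and miR-29b-3p, at 0.95 in HEK293T and 0.62 in HCT116, let-7a-5p and let-7b-5p in HEK293T (0.90), and in HCT116 miR-29c-3p and miR-29b-3p (0.57) and miR-181c-5p and miR-181d-5p (0.57). Of the 3 pairs with the highest level in HEK293T, miR-15b-5p and miR-16-5p had the gap of 3.29 just given, miR-19a-3p and miR-19b-3p had 0.92, and miR-17-5p and miR-20a-5p had 0.72. With AA their gaps were 0.07, 0.47 and 0.03. In HCT116 miR-221-3p and miR-222-3p were the pair with the highest level, followed by miR-29a-3p and miR-29b-3p with a gap of 2.36 and miR-15b-5p and miR-16-5p with 0.68. MiR-16-5p, miR-19b-3p, miR-29b-3p and let-7a-5p are each made from more than one locus, so their counts mix transcripts.

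**Figure D5:**
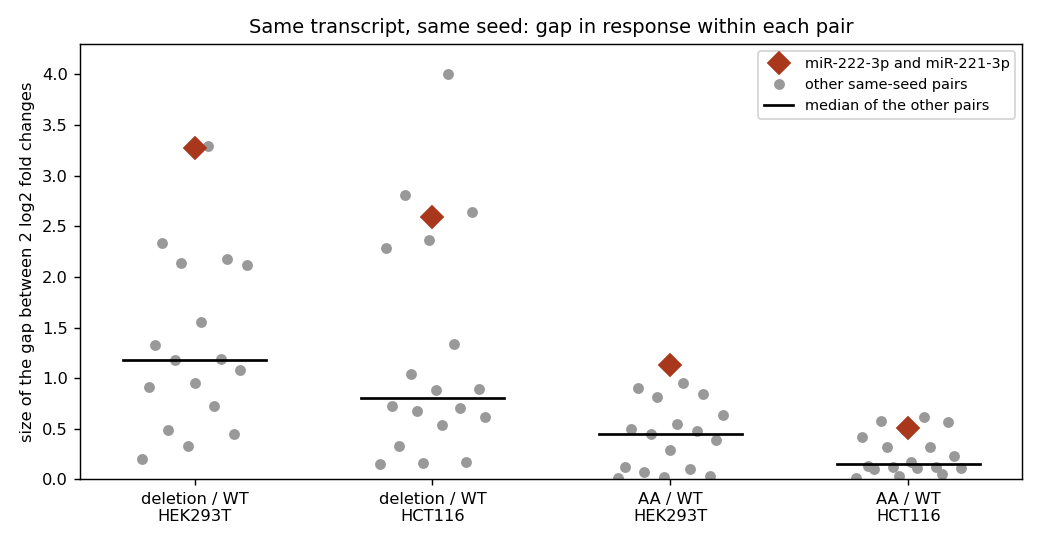
Size of the gap between the 2 log2 fold changes of each same-transcript, same-seed pair, in 4 comparisons with WT. The diamond is miR-222-3p and miR-221-3p, grey points are the other pairs and the line is their median. The diamond is at 3.27, 2.59, 1.13 and 0.51 from left to right, above the median each time, and this pair was picked for its different response.

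By the size of its changes over the 12 libraries, miR-221-3p was closer to miRNAs of other loci than to miR-222-3p. Likeness was the root mean square difference of log2 CPM after each line was centred, over 250 names, so that it grows with a difference in size even where 2 profiles rise and fall together. The 4 names nearest to miR-221-3p were miR-30c-5p (0.14), miR-148a-3p (0.14), miR-126-5p (0.21) and miR-95-3p (0.24), while miR-222-3p came at rank 173 (1.25). Pearson's r of the same profiles over the 12 libraries, which share their depth and groups, was 0.989 between miR-221-3p and miR-222-3p, against 0.992 for miR-30c-5p, 0.996 for miR-148a-3p, 0.975 for miR-126-5p and 0.981 for miR-95-3p, so that by this measure miR-222-3p lay among these names. MiR-222-5p came at rank 14 by the root mean square difference (0.39). The 4 names nearest to miR-222-3p were miR-103a-3p (0.26), miR-1307-3p (0.29), miR-25-3p (0.32) and miR-203a-3p (0.35), while its own passenger miR-222-5p came at rank 30 and miR-221-3p at rank 57. Pearson's r with miR-222-3p was 0.994, 0.992, 0.989 and 0.988 for these 4 names in order. It was 0.984 for miR-222-5p and 0.989 for miR-221-3p, so by r miR-221-3p lay among the 4. MiR-203a-3p averaged only 12.1 CPM in HEK293T and was at 0 CPM in its lowest library there. Its fitted change with the deletion in HEK293T was −8.67, against −5.67 for miR-222-3p. With the deletion, miR-30c-5p changed by −2.42 in HEK293T and −1.73 in HCT116 on the log2 scale, beside −2.40 and −1.64 for miR-221-3p. MiR-103a-3p changed by −5.07 in HEK293T and −3.96 in HCT116, beside −5.67 and −4.24 for miR-222-3p. All libraries of a line share their depth differences in every profile, and the likeness is a description.

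MiR-24-3p and miR-196a-5p, which like the miR-221 and miR-222 guides have been linked to CDKN1B, were listed beside them. MiR-24-3p fell with the deletion in both lines, by 0.72 in HEK293T and 1.58 in HCT116, and miR-196a-5p rose by 0.86 in HEK293T and was at −0.04 in HCT116. With AA neither passed in either line. Of 14 miRNAs often reported as raised in colorectal cancer, 13 were tested. With the deletion 9 fell and 2 rose in HEK293T, with a median log2 fold change of −1.05 against −0.07 over all names, and 9 fell and 1 rose in HCT116, with a median of −0.52 against −0.01. With AA 5 fell and 1 rose in HEK293T (median −0.16 against −0.11) and 1 fell in HCT116 (median −0.13 against −0.03). Of all names, 39.6% fell and 35.9% rose with the deletion in HEK293T, and 34.1% fell and 28.1% rose in HCT116. With AA 15.2% fell and 6.23% rose in HEK293T, and 6.16% fell and 1.26% rose in HCT116. Of the 4 most abundant members in HCT116 with WT, miR-17-5p fell with the deletion by 1.05 in HEK293T and 0.94 in HCT116, and miR-92a-3p by 0.72 in HEK293T and 0.51 in HCT116. MiR-21-5p fell by 3.80 in HEK293T and was at −0.04 in HCT116, and miR-31-5p was at −0.27 in HEK293T and fell by 0.94 in HCT116. MiR-203a-3p and miR-25-3p of the same list were among the 4 profiles nearest to miR-222-3p, so their closeness follows from that choice. With the deletion in HCT116 these 2 were at −4.46 and −4.21, beside −4.24 for miR-222-3p and −1.64 for miR-221-3p.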

How the data were processed

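AQ-seq small RNA libraries of 12 samples were used, grouped by cell line and DICER form from the sample titles. The deposited values are raw counts made by the authors, 1 table per library with a read count per miRNA name and for 30 spike-in RNAs. Per the submitters' processing notes, cutadapt, BWA and bedtools were used and the builds were hg38 and mm10; versions, the miRNA annotation and the treatment of reads with several matches were not given in the sources used here. A split of such reads could move counts between names with near-identical sequences. The spike-ins made up 1.20% to 3.54% of reads per library in HEK293T and 0.272% to 1.55% in HCT116, and neither library sizes nor tests include them.

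The statistics used edgeR 4.0.16 (with limma 3.58.1) and, as an alternative, DESeq2 1.42.0, both run in R 4.3.3. Figures and folds used matplotlib 3.10.9 and ViennaRNA 2.7.2 under Python 3.11.15. Within a line, low names were removed with filterByExpr (groups given, minimum count 10). The rest were TMM-scaled and entered edgeR's quasi-likelihood F test on the 6 libraries together, two-sided, with Benjamini-Hochberg adjustment over all tested names at 0.05. All 4 arms passed the filter in both lines. The SE is the log2 fold change divided by the square root of F. Lines were compared by contrasts in a fit of the 12 libraries on names that both lines list. There were 9 comparisons of levels and 4 of arm use, where a hairpin needed 10 or more reads on each arm in 2 or more libraries. The code was tested on simulated counts with known changes.

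Besides the 4 arms, the text names the 4 miRNAs with the nearest profile to each guide among names of at least 100 CPM in HCT116, the 3 same-seed pairs with the highest level and the 3 with the largest gap in each comparison, and the 4 most abundant colorectal cancer miRNAs. The members, lists and this naming rule were chosen with earlier results of these data known. Alternatives were DESeq2 size factors, library totals, upper-quartile factors, spike-in factors, no filter on low counts, DESeq2's test, only the 2 groups compared, a replicate block, other read minimums for arms, summed reads and arms for the ratio, and leaving out each library. Replicates of a group differed by more than sampling noise.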

Additional observations from a re-analysis of the deposited data

Results flagged for a closer look

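The deletion effect on miR-222-3p differed between the lines, by −1.12 on the log2 scale (HEK293T minus HCT116), with a fall of 5.67 in HEK293T and 4.24 in HCT116. For miR-222-5p the difference between the lines was −1.58, on 8 and 10 reads in the HEK293T deletion libraries. For miR-221-5p it was −1.15, where the arm was at −0.36 in HEK293T and rose by 1.09 in HCT116 at TMM scaling. The differences come from the fit of the 12 libraries, and the changes within a line from separately scaled fits, so the 2 do not subtract exactly. Each was picked out because the interaction of line and DICER form passed the edgeR test at an adjusted p under 0.05. The causes of these differences were not tested.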

How the results depend on the processing

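Both guides and miR-222-5p fell with the deletion in both lines under every alternative run, and the ratio of the guides kept its order. Spike-in factors reversed miR-221-5p with the deletion in HCT116 (−0.75). They ended its call between AA and the deletion there (−0.043) and its line difference in the deletion effect (−1.04). They added calls for AA in HCT116 (−0.82 for miR-221-3p, −0.80 for miR-221-5p, −0.998 for miR-222-5p) and for miR-221-5p in HEK293T with the deletion (−1.81) and between AA and the deletion (1.01). Upper-quartile factors ended the call of miR-222-5p with AA in HEK293T (−0.60), where the median of all names was 0.34, against −0.11 with TMM. The line difference of miR-221-3p with the deletion passed with DESeq2 size factors (−0.74), library totals (−1.17), upper-quartile factors (−0.76), no filter (−0.78) and DESeq2's test (−0.74), and library totals added line differences with AA for miR-222-3p (−0.82) and miR-222-5p (−0.92). The median of all names for the line difference with the deletion was 0.34 with TMM. It was 0.03, −0.40, 0.02, 0.04 and 0.08 at those 5 settings in the same order. With both arms summed the ratio of the hairpins in HCT116 was 1.19 with AA, 0.251 with the deletion and 1.70 with WT.

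Leaving out 1 library gave 0.56 to 1.57 for miR-221-5p with the deletion and −0.77 to −0.68 for miR-222-3p with AA in HCT116. It gave −2.004 to −1.68 for arm use of miR-222 with the deletion in HEK293T, and line differences with the deletion of −0.68 to −0.24 for miR-221-3p and −1.88 to −0.82 for miR-221-5p. The cause of these shifts was not tested, other than that a lost library leaves fewer samples.

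Counts of names called higher and lower over all names moved more. For AA against WT in HCT116 they were 10 and 49 with TMM, 22 and 23 with library totals, 11 and 23 with upper-quartile factors, 2 and 270 with spike-ins, 20 higher with only these groups, and 1 to 19 higher and 9 to 66 lower without 1 library. In HEK293T they were 39 and 95 with TMM, 129 and 41 with upper-quartile factors, 57 and 82 with DESeq2 size factors, 53 and 82 with only these groups, 8 and 190 with spike-ins, 23 and 113 with no filter, and 18 to 45 higher and 36 to 101 lower without 1 library. For the deletion against WT they were 225 and 248 in HEK293T (60 and 386 with spike-ins, 181 and 305 with no filter) and 223 and 271 in HCT116 (317 and 198 with library totals, 7 and 598 with spike-ins, 151 and 326 with no filter). For AA against the deletion they were 226 and 231 in HEK293T (322 and 99 with spike-ins) and 235 and 214 in HCT116 (181 and 276 with library totals, 476 and 14 with spike-ins, 282 and 141 with no filter, 104 to 199 lower without 1 library). Between lines with WT they were 270 and 348 (85 and 577 with spike-ins). For the line difference with the deletion they were 189 and 105 (93 and 197 with library totals, 152 and 136 with DESeq2 size factors, 148 and 141 with upper-quartile factors, 135 and 136 with no filter, 141 and 126 with DESeq2's test), and with AA 8 and 25 (19 and 25 with DESeq2 size factors, 7 and 71 with library totals, 8 and 14 with spike-ins, 14 higher with no filter, 21 and 24 with DESeq2's test, 4 to 19 higher and 16 to 40 lower without 1 library). Against TMM, spike-in factors put the median of all names at −1.53 in HEK293T and −1.78 in HCT116 with the deletion, and at −0.58 in HEK293T and −0.63 in HCT116 with AA, and library totals put it at 0.52 in HCT116 with the deletion.

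Replicate numbers were checked for pairing by the correlation of deviations between same-numbered libraries, which was −0.0675 to 0.0930 in HEK293T and −0.104 to 0.147 in HCT116, so they were not used as pairs. With a replicate block the log2 fold change of miR-222-3p with the deletion was −5.67 in HEK293T and −4.24 in HCT116, and the block changed no call of the 4 arms. Depth limits the passengers in HEK293T most: miR-222-5p rests on 8 and 10 reads with the deletion and miR-221-5p on 24 to 100 reads in all HEK293T libraries.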
